A study of Mus musculus with 8 samples.

Results

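The transcripts of 3 hyperpolarization-activated cyclic nucleotide-gated (HCN) channel genes, Hcn2, Hcn3 and Hcn4, were examined in developing dorsal root ganglia (DRG) of mouse embryos. They were taken by symbol, as members of the Hcn family, and make up 3 of the 55414 genes listed for each library. Bulk RNA-seq was performed on whole ganglia, labelled as holding neurons and glia, of E18.5 embryos. The 4 AD1 OE libraries came from AdvillinCre/+;Rosa26Dach1/+ embryos, in which 1 Advillin (Avil) allele carries the Cre recombinase and the Rosa26 locus carries a Dach1 transgene that is transcribed after Cre has removed a stop cassette. The 4 Control libraries came from Advillin+/+;Rosa26Dach1/+ embryos, which carry the same silent Rosa26Dach1 allele and no Cre. Rosa26Dach1 mice were of mixed C57Bl/6J and CD1 background, and AD1 OE animals die around birth. Advillin drives Cre in the sensory neurons and not in the glia of the ganglia. The labels do not say whether a library is 1 embryo or a pool, so p-values measure only the spread between these libraries.

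HCN channels are cation channels that open when the membrane becomes more negative than at rest and carry the inward pacemaker current Ih, which pulls the membrane back towards threshold. Subunits assemble as tetramers, each subunit with membrane-spanning segments, a pore loop with the selectivity filter Gly-Tyr-Gly and a cyclic nucleotide-binding domain at the C-terminal side. Cyclic AMP eases the opening of channels built from Hcn2 or Hcn4, while Hcn3 channels respond little to it. In sensory neurons Ih shapes repetitive firing, Hcn2 is known for its part in the firing of nociceptors in inflammatory pain, and Hcn4 is best known as the main pacemaker subunit of the heart.

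The members are separate genes that share their channel core. Hcn2 (ENSMUSG00000020331) lies on the plus strand of chromosome 10, Hcn3 (ENSMUSG00000028051) on the minus strand of chromosome 3, and Hcn4 (ENSMUSG00000032338) on the plus strand of chromosome 9. Each has 8 exons, and the selectivity filter is encoded in exon 4 of each. The 90 coding bases around the filter are shown from the reference (GENCODE M21, GRCm38) because they lie in the conserved pore, where reads of the 3 genes could be mistaken for each other. Capitals mark the codons of the Gly-Tyr-Gly filter.
Hcn2: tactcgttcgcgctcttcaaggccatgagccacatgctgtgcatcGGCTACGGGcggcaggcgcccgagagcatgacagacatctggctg
Hcn3: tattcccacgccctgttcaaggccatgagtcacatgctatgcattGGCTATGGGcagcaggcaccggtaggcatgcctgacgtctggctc
Hcn4: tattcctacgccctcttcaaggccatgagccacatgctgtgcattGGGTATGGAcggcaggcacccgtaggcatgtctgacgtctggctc

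In GRCm38 these stretches lie at chr10:79728914-79729003 for Hcn2, chr3:89150970-89151059 for Hcn3 and chr9:58855546-58855635 for Hcn4. Of the 90 bases, Hcn3 and Hcn4 had 81 in common (90%), Hcn2 and Hcn4 had 74 (82.2%) and Hcn2 and Hcn3 had 70 (77.8%). The longest run of identical bases was 32, between Hcn2 and Hcn4, so that the similarity never reached the length of a 50-base word. Over the whole annotated transcripts, 0 of the 50-base words of any of the 3 genes occurred in another Hcn gene. For Hcn2 and Hcn4, 0 of 3190 and 0 of 6069 such words occurred in any other gene. For Hcn3, 662 of 4184 words (15.8%) also lie in Pklr, the pyruvate kinase gene of liver and red cells, which overlaps 711 exonic bases of Hcn3 on the opposite strand. Pklr held 3 to 9 counts per library, against 1245 to 2538 for Hcn3. The strand setting of the counting is not given in the sources used here, and it bears on how reads in the shared bases were counted. The part of this overlap in the level of Hcn3 was not tested.

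The libraries held 22339059 to 44025625 counts assigned to genes, and 17721 genes passed the filter on low counts and were tested. The labels were checked on the manipulated genes. Dach1, which encodes the overexpressed transcription factor, had a counts-per-million level (CPM, on TMM-scaled library sizes) of 95.9 ± 5.28 (mean ± SD, n = 4) in AD1 OE and 32.6 ± 1.64 in Control (log2 fold change 1.55, edgeR adjusted p = 1.77e-08). Avil was at 464 ± 12.03 against 892 ± 35.1 CPM (log2 fold change -0.94, edgeR adjusted p = 1.98e-07). The 7 pan-neuronal markers summed to 7889 to 8629 CPM in AD1 OE and 8334 to 8637 in Control, and the 7 glial markers to 1975 to 2156 and 2002 to 2359, so the labelled cell types were present in every library. The sexes were unevenly spread, which the labels do not state. Xist, the RNA of the inactive X, was at 952.9 to 1119 CPM in AD1 OE replicate 3 and Control replicates 1 to 3 and at 0.936 to 2.96 CPM in the others, which carried the Y-linked transcripts.

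The 3 genes were expressed in every library, and Hcn3 was the most abundant. Levels of different genes were compared as CPM per kilobase of exon, since a longer transcript collects more reads. On this scale Hcn3 stood at 14.1 ± 0.77 in AD1 OE and 15.9 ± 0.30 in Control (n = 4 each). Hcn2 stood at 6.46 ± 0.38 and 6.65 ± 0.44, and Hcn4 at 5.60 ± 0.64 and 5.59 ± 0.42. Within a library the per-kilobase level of Hcn3 was 2.3 ± 0.19 times that of Hcn2 (range 2.04 to 2.69 over 8 libraries) and 2.71 ± 0.32 times that of Hcn4 (2.23 to 3.17). The lowest Hcn3 level of any library, 13.4, lay above the highest Hcn2 level of 7.06. Hcn2 and Hcn4 were neighbours in this order and lay close together. Their ratio was 1.18 ± 0.083 (1.04 to 1.30), with Hcn2 above Hcn4 in 8 of 8 libraries, while across libraries the lowest Hcn2 level (6.04) was below the highest Hcn4 level (6.37).

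**Figure D1:**
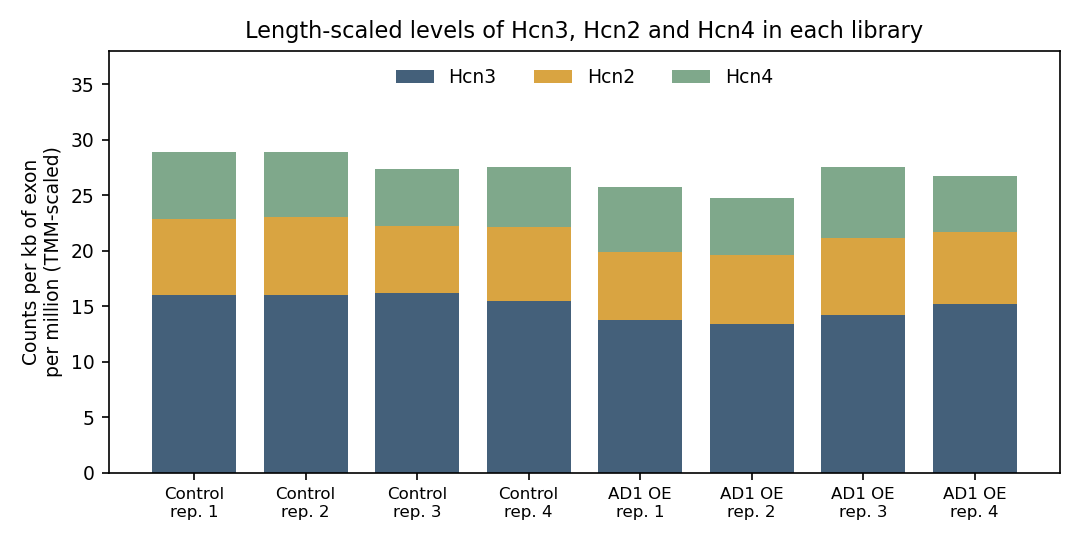
Length-scaled levels (CPM per kilobase of exon, vertical axis, from 0) of Hcn3, Hcn2 and Hcn4 stacked for each of the 8 libraries (horizontal axis). Hcn3 fills the largest segment in every bar, from 13.4 to 16.2, while Hcn2 (6.04 to 7.06) and Hcn4 (5.02 to 6.37) are close to each other.

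As shares of the summed per-kilobase level of the 3 genes, Hcn3 accounted for 51.5% to 56.8% in AD1 OE and for 55.3% to 59.3% in Control. Hcn2 accounted for 23.7% to 25.3% and 22.1% to 24.4%, and Hcn4 for 18.8% to 23.1% and 18.7% to 20.9%. The mean share of Hcn3 was 54.0% ± 2.18 against 56.6% ± 1.87 (SD, n = 4 each), that of Hcn2 24.7% ± 0.78 against 23.6% ± 1.04, and that of Hcn4 21.4% ± 2.01 against 19.9% ± 0.96. The ranges of the groups overlapped for each gene, and the differences between the shares were not tested.

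The question asked of the 3 channels was whether their transcripts differ between Control and AD1 OE, where Dach1 is expressed throughout the sensory neurons at this late stage. AD1 OE also carries Cre in an Avil allele and had less Avil RNA. Dach1, Cre and the lower Avil level cannot be told apart in this comparison. No member passed the study's thresholds for this comparison, an adjusted p under 0.005 together with an absolute log2 fold change over 0.25. In edgeR 455 of the 17721 tested genes (2.57%) passed them, and in DESeq2 655 genes did. The count of members was 0 in edgeR, DESeq2 and limma-voom. Of the 3, 1 (Hcn3) had an unadjusted p under 0.05 in edgeR, as had 18.6% of all tested genes. Hcn3 was slightly lower in AD1 OE, at 88.8% of its Control level, whereas the fitted levels of Hcn2 and Hcn4 were 97.0% and 100.3% of Control.

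Hcn3 was at 57.4, 55.5, 58.9 and 63.0 CPM in AD1 OE replicates 1 to 4 and at 66.4, 66.4, 67.4 and 64.4 CPM in the Control replicates. The groups did not overlap, since the highest AD1 OE library lay below the lowest Control library, a pattern that 7.26% of all tested genes showed in this direction (5.69% in the other and 13.0% in either). The log2 fold change was -0.17 ± 0.044 (SE), with a 95% confidence interval of -0.27 to -0.08, and the edgeR adjusted p was 0.04. At an adjusted p under 0.05 with no fold limit, which 6.55% of tested genes passed (4.14% lower and 2.42% higher in AD1 OE), Hcn3 would thus have counted as lower. It did not stay on this side of 0.05 in each fit. When single libraries were left out, the edgeR adjusted p ranged from 0.0161 to 0.13, and it stayed under 0.05 only without AD1 OE replicate 4. With sex as a term in the fit, the log2 fold change was -0.16 and the edgeR adjusted p was 0.144. Within males Hcn3 averaged 58.6 CPM in 3 AD1 OE libraries against 64.4 in 1 Control library, and within females it was 58.9 CPM in 1 AD1 OE library against an average of 66.7 in 3 Control libraries. The direction was therefore the same in both sexes (log2 ratio -0.14 and -0.18), with too few libraries for a test within either. The absolute log2 fold change of Hcn3 was at percentile 74.9 of all tested genes, whose median was 0.084.

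**Figure D2:**
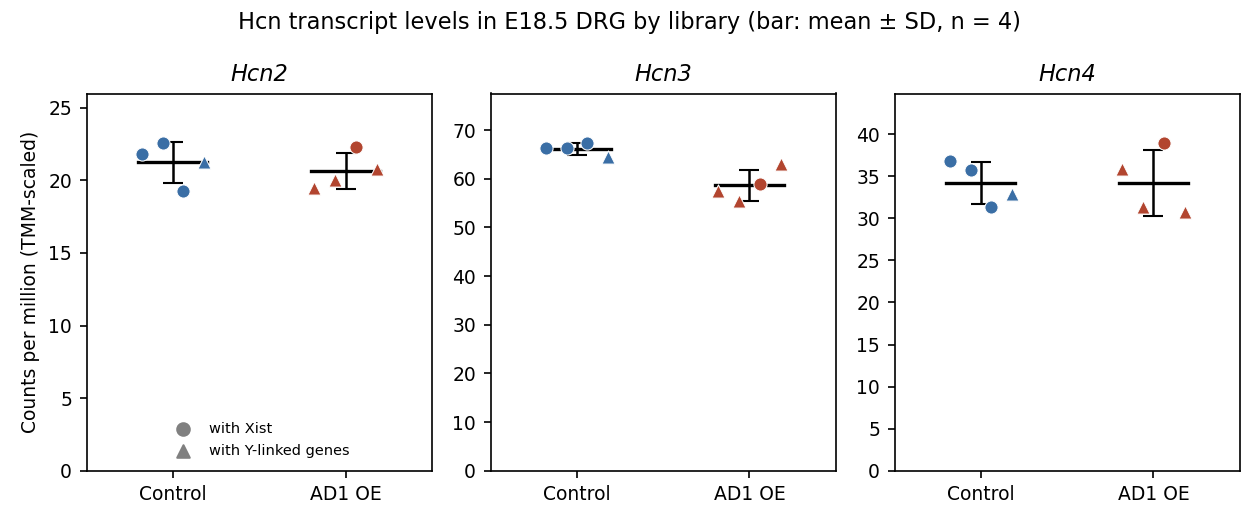
CPM (vertical axes, from 0) of Hcn2, Hcn3 and Hcn4 in Control (blue) and AD1 OE (red) libraries; circles are libraries with Xist, triangles libraries with Y-linked genes, and bars give mean ± SD (n = 4). The 4 AD1 OE values of Hcn3 (55.5 to 63.0) all sit below the 4 Control values (64.4 to 67.4), while for Hcn2 and Hcn4 the groups overlap.

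Hcn2 was at 19.5, 20.0, 22.3 and 20.8 CPM in AD1 OE replicates 1 to 4 and at 21.8, 22.6, 19.3 and 21.3 CPM in the Control replicates. The lowest value of all was in a Control library, and the groups overlapped over most of their range. The log2 fold change was -0.04 ± 0.065 (SE; edgeR adjusted p = 0.785). Its 95% confidence interval ran from -0.19 to 0.10, that is from 87.8% to 107% of the Control level, so a difference of the size measured for Hcn3 lies within it. Within males the log2 ratio was -0.08 and within females 0.07, and with sex as a term the fitted value was -0.01. Hcn2 lies 47.3 Mb from Avil, on the chromosome that carries the Cre allele.

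Hcn4 was at 35.9, 31.3, 39.0 and 30.7 CPM in AD1 OE replicates 1 to 4 and at 36.8, 35.8, 31.3 and 32.9 CPM in the Control replicates. Both the highest and the lowest library were AD1 OE, and the group means, 34.2 ± 3.92 and 34.2 ± 2.55 CPM, were equal to 3 digits. The log2 fold change was 0.00 ± 0.081 (SE; edgeR adjusted p = 0.988), with a 95% confidence interval of -0.17 to 0.18 (88.7% to 113% of Control). Its sign is not defined by these libraries, since it turned negative in 4 of the 8 fits that left 1 library out, where the values ran from -0.05 to 0.06. Within males the log2 ratio was -0.01, and within females it was 0.17, from 1 AD1 OE library at 39.0 CPM against 3 Control libraries.

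**Figure D3:**
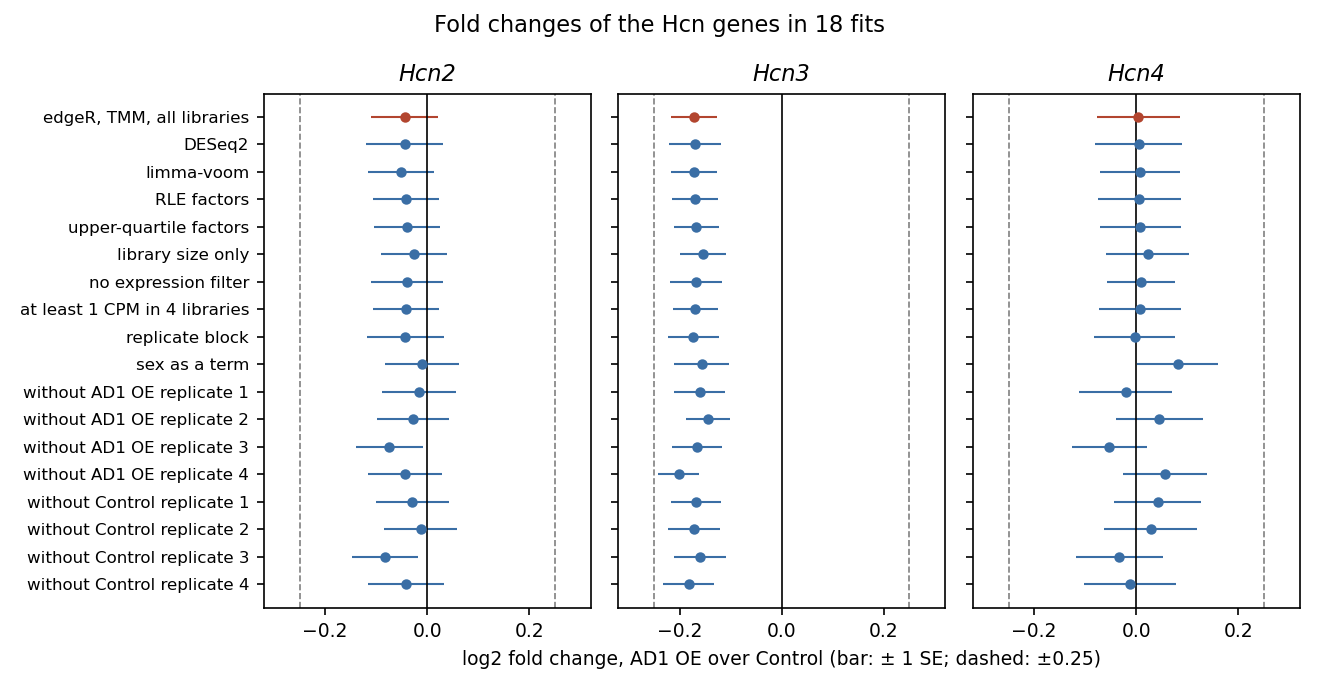
Log2 fold change of AD1 OE over Control (horizontal axes; points with bars of ± 1 SE) for each Hcn gene in 18 fits, the edgeR fit with all libraries in red and the others in blue, with dashed lines at ± 0.25. Hcn3 stays between -0.20 and -0.15 in the fits shown, Hcn2 between -0.08 and -0.01, and Hcn4 lies on both sides of 0 (-0.05 to 0.08).

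The coefficient of variation of Hcn4 was 11.5% in AD1 OE and 7.45% in Control, where the counts alone would give 3.24%. For Hcn2 it was 5.90% and 6.57% (4.14% and 4.13% from counting), and for Hcn3 5.43% and 1.89% (2.46% and 2.33%). Over all genes the common biological coefficient of variation was 8.22%. Whether the spread differed among the members was not tested. Averaged over the 4 libraries of each sex, Hcn4 was at 35.7 CPM in females and 32.7 in males, Hcn2 at 21.5 and 20.4, and Hcn3 at 64.8 and 60.1. Since 3 of the 4 female libraries were Control, sex and genotype are partly mixed in these averages, which were not tested.

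Marker genes of the ganglion cell types differed unequally between the groups. In bulk ganglia, fewer cells of a type and less RNA per cell cannot be told apart. On E18.5 sections the study counted neurons with Islet1, Prdm12, TrkB or TrkC and reported appropriate numbers of the main subtypes in AD1 OE. Of 8 nociceptor markers, 4 fell (Calca, Tac1, Scn10a and Mrgprd) and 0 rose, against 1.78% lower and 0.784% higher over all tested genes. The summed level of the 8 was 2345 to 2508 CPM in AD1 OE and 3116 to 3405 in Control. The nociceptor transcription factor Prdm12 (log2 fold change 0.09, edgeR adjusted p = 0.382) did not pass the test. Of 8 markers of large-diameter A-fibre neurons, 0 passed the thresholds in edgeR and limma-voom, 1 in DESeq2, and 3 had an unadjusted p under 0.05 in edgeR, against 18.6% of all tested genes. Their sums, most of which came from Nefl and Nefm, were 5185 to 5668 and 5190 to 5661 CPM. At an adjusted p under 0.05, 1 was lower in AD1 OE (Nefh, log2 fold change -0.24, edgeR adjusted p = 0.0116). Another, Ntrk3, was higher (0.30, edgeR adjusted p = 0.0171). Over all tested genes 4.14% were lower and 2.42% higher at this cut-off. Of the markers of C-LTMR, the unmyelinated low-threshold mechanoreceptors, 1 of 4 rose (Th) and 1 fell (Tafa4), against 0.784% higher and 1.78% lower over all tested genes. Only Th had a value above 0, at 63.8 CPM in AD1 OE and 21.2 in Control. Tafa4 (log2 fold change -0.38), Zfp521 (-0.23, edgeR adjusted p = 0.00795) and Slc17a8 (-0.15) were below 0. The sums, 188.3 to 197.8 and 169.0 to 189.3 CPM, thus follow Th and not the other markers. The 4 macrophage markers had 0 calls and summed to 51.1 to 59.1 and 55.7 to 62.1 CPM. The part of these levels in the value of Hcn3 was not tested.

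Because Hcn4 is a heart gene, markers of heart muscle were followed. Nppa and Myl7, which define atrial muscle, were at 0.178 to 0.306 and 0.0678 to 0.178 CPM in AD1 OE and at 0.157 to 0.280 and 0.270 to 0.825 CPM in Control, too low to be tested. Their list of 5 had 0 calls and summed to 26.3 to 115.7 CPM in AD1 OE and 26.9 to 48.6 in Control. Most of this came from the cardiac myosin gene Myh6, at 14.7 to 15.7 CPM in AD1 OE and 12.5 to 15.2 in Control, and from Actc1, which skeletal muscle also makes, at 9.39 to 98.8 and 10.3 to 34.5 CPM. Tnni3 was at 0.814 to 1.29 and 0.654 to 1.64 CPM. Per kilobase, Actc1 averaged 18.2 CPM over the 8 libraries, Myh6 2.14, Myl7 0.548, Tnni3 0.524 and Nppa 0.255, while Hcn4 ranged from 5.02 to 6.37. The part of heart muscle RNA in the level of Hcn4 was not tested. The 6 skeletal muscle markers (121.4 to 621.8 and 145.4 to 396.8 CPM), the 6 spinal cord markers (12.9 to 15.7 and 14.0 to 23.1), the 4 endothelial markers (239.3 to 291.7 and 248.5 to 258.8) and the 4 erythroid markers (214.1 to 728.1 and 203.6 to 354.3) each had 0 calls in edgeR, DESeq2 and limma-voom, and of these lists and those of macrophages and heart muscle 1 gene, of the spinal cord list, had an unadjusted p under 0.05 in edgeR. The 4 tested spinal cord markers all had values below 0 (median log2 fold change -1.09): Slc6a5 was at 0.407 to 1.57 CPM in AD1 OE and 0.592 to 5.45 in Control, Olig2 at 0.339 to 0.624 and 0.187 to 3.29, Pax2 at 0.312 to 0.504 and 0.280 to 1.03, and Hoxb8 at 10.7 to 13.2 and 12.8 to 15.6. Of the 2 not tested, Mnx1 was at 0 to 4 counts per library and Lhx5 at 1 to 18. Hoxb8 made up most of the spinal cord sum in both groups and was the gene of this list with an unadjusted p under 0.05 in edgeR. The part of spinal cord RNA in the levels of the Hcn genes was not tested.

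The genes beside the members were not called either. Polrmt, the mitochondrial RNA polymerase gene, ends 15 bases from Hcn2 on the opposite strand and was at 32.3 ± 3.36 and 32.8 ± 1.41 CPM (log2 fold change -0.02, edgeR adjusted p = 0.916). Bsg lies 4665 bases from Hcn2 on its other side (-0.08, adjusted p = 0.384). Clk2 and Fdps flank Hcn3 (0.08 and -0.09, edgeR adjusted p = 0.424 and 0.632), and Neo1 and Rec114 flank Hcn4 (0.07 and 0.46, edgeR adjusted p = 0.354 and 0.227). The neighbours of Hcn3 thus had values of opposite sign.

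The genes that followed each member most closely were found by the SD over the 8 libraries of the log2 ratio of their CPM to that of the member, among the 13978 genes that averaged 1 CPM or more. For Hcn3 they were Ppa1, an inorganic pyrophosphatase gene (SD 0.034), Cdipt, which encodes phosphatidylinositol synthase (0.036), and Arhgap44, a GTPase-activating protein gene (0.036). These genes had log2 fold changes of -0.16, -0.17 and -0.14, and none of them passed both thresholds (edgeR adjusted p = 0.0467, 0.00623 and 0.077). Since the genes were chosen over libraries of both genotypes, fold changes near that of Hcn3 follow from the choice. For Hcn2 they were Nudc, Arhgap10 and Rad1 (0.032 to 0.036), and for Hcn4 they were Fzd2, Trp53i13 and Lrrc14 (0.030 to 0.037). Beside these values, the SD of the ratio between members was 0.116 for Hcn2 and Hcn3, 0.103 for Hcn2 and Hcn4 and 0.173 for Hcn3 and Hcn4, so that each member had many genes nearer to it than the other members were. Over libraries of 2 genotypes such a likeness also reflects how little a gene varies, since the log2 CPM of Hcn2, Hcn3 and Hcn4 themselves had SDs of 0.087, 0.107 and 0.129.

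Around the channels, 78 genes in 8 lists were followed, from the auxiliary proteins through the making and breakdown of cAMP to other channels that act below threshold. Of these 73 were tested, 4 fell and 3 rose (the background was 1.78% lower and 0.784% higher), and the median log2 fold change of those tested was 0.02, against 0.00 over all genes. In most lists the genes with the highest CPM, not scaled to length, are named as well. Of the auxiliary and trafficking proteins 0 of 14 tested passed the thresholds in edgeR, DESeq2 or limma-voom, and 6 had an unadjusted p under 0.05 in edgeR, against 18.6% of all tested genes (median -0.02). Among them Pex5l, which encodes the HCN partner TRIP8b and was chosen after its value was seen, was at 34.4 ± 1.07 and 37.5 ± 1.68 CPM (log2 fold change -0.13, edgeR adjusted p = 0.184). The highest in CPM were Flna, an actin cross-linker that binds HCN channels (0.09, adjusted p = 0.43), and Vapb, an endoplasmic reticulum membrane protein (-0.10, adjusted p = 0.105). Kcne2, a small auxiliary subunit, was at 2 to 12 counts per library and was not tested.

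The enzymes that make cAMP gave 0 calls among 11 genes in edgeR and limma-voom and 1 in DESeq2, and 5 genes had an unadjusted p under 0.05 in edgeR, against 18.6% of all tested genes (median 0.06). The highest in CPM were Gnal, a stimulatory G protein alpha subunit (log2 fold change -0.10, edgeR adjusted p = 0.184), and Adcy1, a calcium-stimulated adenylyl cyclase (0.16, adjusted p = 0.113). Gnal shares 852 exonic bases with Mppe1 on the opposite strand. Gnas, also of this list, averaged 43.6 CPM over the 8 libraries and shares 988 exonic bases with Nespas and 1469 with Gm20721, both on the opposite strand. The part of these overlaps in the level of either gene was not tested. Adcy2 (-0.28, adjusted p = 0.0166) and Adcy5 (-0.25, adjusted p = 0.00795), chosen after their values were seen, were lower in AD1 OE without passing both thresholds, and DESeq2 called Adcy2.

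Of the phosphodiesterases that break down cyclic nucleotides, 1 of 16 rose and 1 fell (median 0.05), against 0.784% higher and 1.78% lower over all tested genes. An unadjusted p under 0.05 in edgeR was found for 7 of the 16, against 18.6% of all tested genes. Pde11a, a phosphodiesterase of both cAMP and cGMP, was at 42.1 to 49.9 CPM in AD1 OE and 23.4 to 25.6 in Control, groups that were far apart (log2 fold change 0.90 ± 0.058, edgeR adjusted p = 2.94e-06). Pde1c, a calcium- and calmodulin-dependent enzyme, was at 51.6 to 62.0 CPM in AD1 OE and 70.6 to 86.9 in Control (-0.51 ± 0.072, edgeR adjusted p = 0.000959). Both calls were made in each of the 8 fits that left 1 library out. Pde10a, which degrades both cyclic nucleotides and had the highest CPM of the list, was at 62.4 ± 5.10 against 79.6 ± 7.42 CPM and did not pass the thresholds (-0.35, edgeR adjusted p = 0.0116), though DESeq2 called it.

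Of the inhibitory G protein alpha subunits, a family with members that lower cAMP formation, 0 of 5 passed both thresholds in edgeR, DESeq2 or limma-voom (median -0.15). An unadjusted p under 0.05 in edgeR was found for 4 of the 5 genes, against 18.6% of all tested genes. Their fold changes were small and 4 of 5 were below 0. The highest in CPM, Gnao1, was at 702 ± 3.76 and 794 ± 39.5 CPM (log2 fold change -0.18, edgeR adjusted p = 0.0391), and Gnai2 at 270 ± 14.6 and 304 ± 8.18 CPM (-0.17, edgeR adjusted p = 0.0433). The 8 cAMP effectors (protein kinase A subunits and the Epac exchange factors) had 0 calls in edgeR and also under each of the 19 alternatives, DESeq2 and limma-voom included (median -0.01), and 5 of them had an unadjusted p under 0.05 in edgeR, against 18.6% of all tested genes. Their highest in CPM were the kinase A regulatory subunits Prkar1a (0.14, edgeR adjusted p = 0.0931) and Prkar1b (-0.06, adjusted p = 0.486).

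Of 11 receptors that couple to stimulatory G proteins, 1 rose and 1 fell (median 0.00), against 0.784% higher and 1.78% lower over all tested genes. An unadjusted p under 0.05 in edgeR was found for 6 of the 11, against 18.6% of all tested genes. The prostaglandin E receptor gene Ptger4, at 4.71 to 5.87 CPM in AD1 OE and 7.07 to 8.78 in Control, fell by 0.57 ± 0.096 on the log2 scale (edgeR adjusted p = 0.00331). The adenosine receptor gene Adora2a, at 7.97 to 10.6 against 6.52 to 6.62 CPM, rose (log2 fold change 0.51 ± 0.089, edgeR adjusted p = 0.00427). These calls were weak, since the list held 0 or 1 call when any single library was left out, Ptger4 being called only without Control replicate 3 and Adora2a only without AD1 OE replicate 2. Ptger4 shares exonic bases with Ttc33 and Gm15937 on the opposite strand. The receptor genes with the highest CPM were the prostacyclin receptor gene Ptgir (-0.29, edgeR adjusted p = 0.0516) and Calcrl, the CGRP receptor component (-0.19, adjusted p = 0.0547).

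Cyclic nucleotide-gated (CNG) channels are the closest relatives of HCN channels by structure, and they were scarce in these ganglia. Of 6 genes 2 were tested, and 3 never exceeded 3 counts in a library. The 2 tested genes had an unadjusted p under 0.05 in edgeR, against 18.6% of all tested genes. Cngb1, a modulatory subunit, was at 2.44 to 2.73 CPM in AD1 OE and 4.10 to 4.68 in Control and fell by 0.79 ± 0.104 on the log2 scale (edgeR adjusted p = 0.000592). Cnga2, the olfactory subunit, was at 0.574 to 0.882 CPM against 0.180 to 0.467 and did not pass the thresholds (1.19 ± 0.273, edgeR adjusted p = 0.0224). With a cut-off of 0.05 on the adjusted p and of 1 on the absolute log2 fold change, Cnga2 passed and Cngb1 did not.

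**Figure D4:**
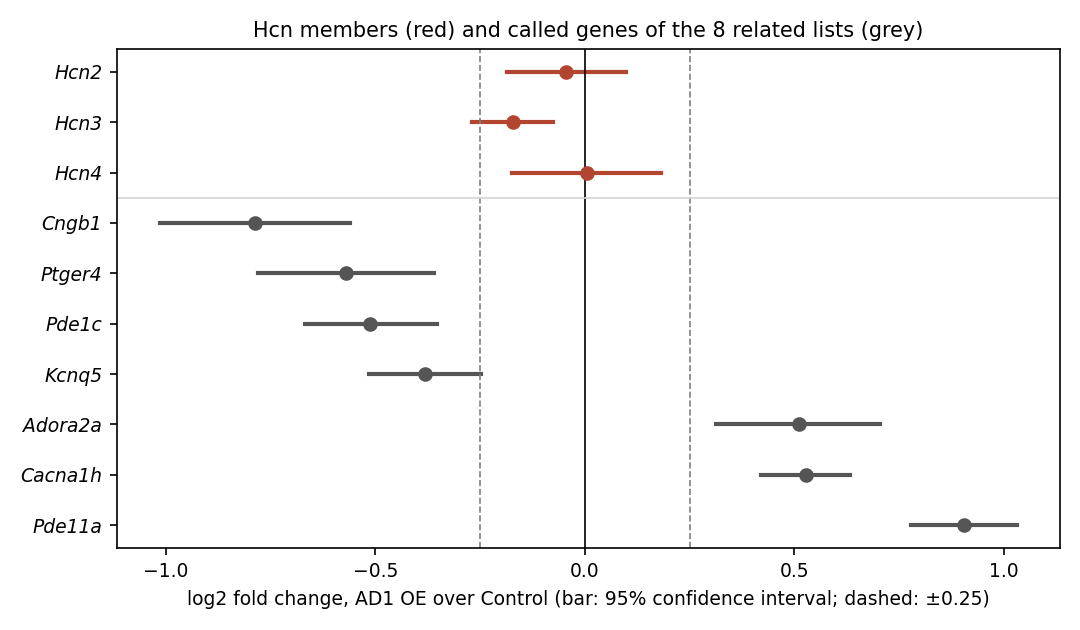
Log2 fold change of AD1 OE over Control (horizontal axis; points with 95% confidence intervals, dashed lines at ± 0.25) for the Hcn genes in red and the 7 called genes of the related lists in grey. The 3 Hcn genes lie between -0.17 and 0.00, while the called genes range from -0.79 (Cngb1) to 0.90 (Pde11a).

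Of the 6 M-type potassium and T-type calcium channel genes, whose currents act in the same voltage range as Ih, 1 rose and 1 fell (median 0.12). Over all tested genes 0.784% were called higher and 1.78% lower. An unadjusted p under 0.05 in edgeR was found for 3 of the 6, against 18.6% of all tested genes. Cacna1h, the T-type calcium channel of sensory neurons, was at 229 to 262 CPM in AD1 OE and 167 to 179 in Control, and it rose (log2 fold change 0.53 ± 0.048, edgeR adjusted p = 3.59e-05). Kcnq5, an M-type channel gene, was at 21.9 to 23.7 against 27.6 to 31.5 CPM and fell by 0.38 ± 0.061 on the log2 scale (edgeR adjusted p = 0.0022), but it was no longer called without any one of AD1 OE replicates 1 to 4 or of Control replicates 2 and 3, nor with sex as a term.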

How the data were processed

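RNA-seq was performed on poly(A) RNA of E18.5 dorsal root ganglia with a stranded Illumina kit. Per the labels and the study's methods, the authors aligned reads to GRCm39 with STAR 2.7.8a and used featureCounts 2.0.1 to count them per Ensembl gene, and they deposited raw counts, neither normalised nor filtered. Groups and replicate numbers were taken from titles and genotypes. Of 55414 IDs, 52133 had a symbol in GENCODE M21 (GRCm38), which also gave exon lengths, neighbours and printed sequences. The family's remaining member is not reported here, and shares refer to the 3 genes named.

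Genes were kept by filterByExpr and AD1 OE was compared with Control in edgeR 4.0.16 (R 4.3.3) by the quasi-likelihood F test with TMM scaling (factors 0.987 to 1.008) and no term but genotype, and p-values were adjusted over 17721 genes after Benjamini and Hochberg. The study used DESeq2. CPM were computed on TMM-scaled library sizes, per kilobase of union exon length where genes were compared. The common biological coefficient of variation was 8.22%. Libraries held 22339059 to 44025625 counts. Replicates differed by more than counting noise (chi-square per degree of freedom 4.02 to 11.1). Reads carried no molecular identifiers, so counting errors cover sampling only.

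Alternatives were DESeq2 1.42.0, limma-voom (limma 3.58.1), RLE, upper-quartile and no scaling, other filters and thresholds, the replicate number as a block, sex as a term, leaving out each library, and, for levels, the longest transcript's length. Scripts were tested on simulated counts. The members and lists were chosen with earlier results of these data known. Named are the members, each list's called genes and its 2 most abundant, the 3 genes most like each member, neighbours, Dach1, Avil and sex genes, of which some genes are not reported here. Other genes, single markers included, were chosen after their values were seen.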

Additional observations from a re-analysis of the deposited data

Results flagged for a closer look

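Single libraries stood apart in 6 of the 166 groups of 4 libraries looked at (83 genes, members and pathway genes included), where chance gives about 1 in 20. None of them concerned an Hcn gene. In each the gap to the nearest library, divided by the range of the group, exceeded the 95% critical value of Dixon's test. Cacna1h had its lowest AD1 OE value, 229 CPM, in replicate 2 (nearest 260) and its lowest Control value, 167 CPM, in replicate 1 (nearest 178), so the groups stayed apart on both sides. Pde10a was at 68.6 CPM in Control replicate 1, below the nearest Control value of 81.7, and Pex5l was at 35.0 CPM in Control replicate 2 (nearest 38). Pde4b was at 43.6 CPM in AD1 OE replicate 1 (nearest 39.4), and Cav3, a caveolin of muscle, was at 3.48 CPM in AD1 OE replicate 3 (nearest 0.95).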

How the results depend on the processing

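Hcn2 and Hcn3 kept the sign of their fold change in all 17 refits, and neither was called at the thresholds used. Leaving out single libraries gave -0.08 to -0.01 for Hcn2 and -0.20 to -0.15 for Hcn3, and the other settings gave -0.05 to -0.01 and -0.17 to -0.15. The adjusted p of Hcn3 lay between 0.013 (DESeq2) and 0.144 (sex as a term) and was under 0.05 in 7 of the 17 refits; at 0.05 with no fold limit its -0.17 (adjusted p = 0.04 in edgeR) would pass. Hcn4 had a negative fold change with the replicate block (-0.003, adjusted p = 0.991), and without AD1 OE replicate 1 (-0.02), AD1 OE replicate 3 (-0.05), Control replicate 3 (-0.03) and Control replicate 4 (-0.01), in a range of -0.053 to 0.057 over single libraries left out. Per-kilobase levels moved by less than their spread (Hcn3 14.9 to 15.6, Hcn2 6.48 to 6.62, Hcn4 5.48 to 5.67).

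Libraries with the same replicate number did not deviate together (correlation -0.0099, -0.054, -0.035 and 0.313 for replicates 1 to 4), so the numbers pair nothing known. With the replicate block Hcn2 was at -0.04 and Hcn3 at -0.17 (adjusted p = 0.0966), and 0 Gs-coupled receptors, 0 CNG channels (Cngb1 was not called) and 1 subthreshold channel gene were called.

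Over all genes, 455 calls became 655 with DESeq2 and 747 with no expression filter. They became 289 to 420 with single libraries left out (289 without AD1 OE replicate 1). Other thresholds gave 1161 at 0.05 with no fold limit and 129 at 0.05 with an absolute log2 fold change over 1. At 0.05 with no fold limit the calls were 1 among auxiliary proteins, 2 in cAMP synthesis, 6 in cAMP breakdown, 2 among inhibitory G proteins and 2 among CNG channels. With the fold limit of 1 they were 0 in cAMP breakdown, 0 among Gs-coupled receptors and 0 among subthreshold channels, and 1 among CNG channels, which was Cnga2 (higher) in place of Cngb1. DESeq2 gave 1 call in cAMP synthesis and 4 in cAMP breakdown, and no expression filter gave 1 and 5. With sex as a term, 1 Gs-coupled receptor and 1 subthreshold channel gene were called. Leaving out single libraries gave 0 to 1 calls among Gs-coupled receptors, 1 to 2 among subthreshold channels and 2 to 3 in cAMP breakdown. The cause of these shifts was not tested. With 4 libraries a group, the intervals of Hcn2 and Hcn4 still hold levels of 87.8% and 88.7% of Control.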
